A study of Xenopus laevis with 20 samples.

Results

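Chromosomes 8L and 8S of Xenopus laevis are the long (L) and short (S) copies of 1 of the 9 chromosome pairs of this allotetraploid frog. All peaks whose sequence name in the deposited lists is 8L or 8S were taken, which gave 4186 of the 43980 peaks of the 4 lists. They were selected on the called peaks' chromosome alone, so the number of peaks on the pair is a description, and 37015 peaks on the other 8 pairs served for comparison. The lists came from chromatin immunoprecipitation followed by sequencing (ChIP-seq) of wild-type embryos at Nieuwkoop-Faber stage 20, with 3 antibodies and 1 library in each labelled group. Whole embryos, for which no treatment is labelled, were used for Smad1 and for p300. Explants of foregut and of hindgut were used for β-catenin and again for p300, from embryos kept from stage 12 to stage 20 in DMSO vehicle or in 60 μM BIO, an inhibitor of the kinase GSK3. The explant lists pool both tissues and both treatments by their peak names, so neither could be compared. Each list is a single call set, and the intervals below cover counting error only and no variation between embryos. The lists were not cut alike. The lowest −log10 q-value on the pair was 1.32 for whole-embryo p300, 75.7 for β-catenin, 11.1 for Smad1 and 20.0 for explant p300. Shares that involve whole-embryo p300 can therefore be compared between chromosomes, but not with those of the other lists.

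β-catenin carries the canonical Wnt signal to chromatin, where it binds through partners such as TCF/LEF proteins. Smad1 is phosphorylated by BMP receptors and binds DNA itself, and p300 is a histone acetyltransferase found at active enhancers. Wnt and BMP signals pattern the vertebrate gut tube along its length, and the comparison of the lists asks which sites their effectors share. After the genome duplication that gave rise to Xenopus laevis, each ancestral chromosome is present as an L and an S copy that hold largely the same genes in a similar order, apart from rearrangements. RefSeq places bmp4, which encodes a BMP ligand, foxa1, an endoderm transcription factor, and cdx4, a caudal-type factor of the posterior body, on both 8L and 8S. It places grem1, a secreted BMP antagonist, and nkx2-1, a factor of the thyroid and lung part of the foregut, on 8L. These 5 were the genes on the pair, by symbol as listed, out of lists of 28 Wnt, 27 BMP and 29 gut genes. Of the lists 28, 20 and 28 were found by symbol, and none of the Wnt genes was on the pair. A gene with the symbol smad4.2, a suffixed form of smad4 in the BMP list, was on both copies and was not counted. No peak was assigned to a gene, because the sources used here do not give the genome build of the peaks and no genome sequence was used.

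On the pair lay 1457 β-catenin, 808 Smad1, 1509 explant p300 and 412 whole-embryo p300 peaks. 8L carried 908, 503, 909 and 241 of them, and 8S carried 549, 305, 600 and 171. These were 9.53% of the β-catenin peaks on named chromosomes (exact 95% interval 9.07 to 10.01), 10.7% of Smad1 (9.999 to 11.4), 10.6% of explant p300 (10.1 to 11.1) and 9.96% of whole-embryo p300 (9.07 to 10.9). The span from the chromosome starts to the last peak, 120.1 Mb on 8L and 98.96 Mb on 8S, was 8.75% of that of all 18 chromosomes, so each list had more of its peaks on the pair than the pair's part of the span.

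Sites were therefore dense on this pair. Peaks of the 4 lists that shared at least 1 bp were merged into 2749 regions, 1661 on 8L and 1088 on 8S, or 12.5 regions per Mb. That was the second highest density of the 9 pairs, with the others between 9.46 and 13.3. Smad1 peaks had their highest density here, at 3.69 per Mb against 2.55 to 3.55 on the others, and explant p300 peaks ranked second, at 6.89 per Mb. Against gene number the order changed: the pair had 57.3 regions per 100 RefSeq genes, sixth of 9, with the others between 46.5 and 79.5. The L copy held 62.3% of the β-catenin peaks (59.8 to 64.8), 62.3% of Smad1 (58.8 to 65.6), 60.2% of explant p300 (57.7 to 62.7) and 58.5% of whole-embryo p300 (53.6 to 63.3). It made up 54.8% of the span and had 62.3% of the genes of the pair. No test of pair 8 against the other pairs was made here or below, since 1 of 9 pairs must come first or last in any measure.

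**Figure D1:**
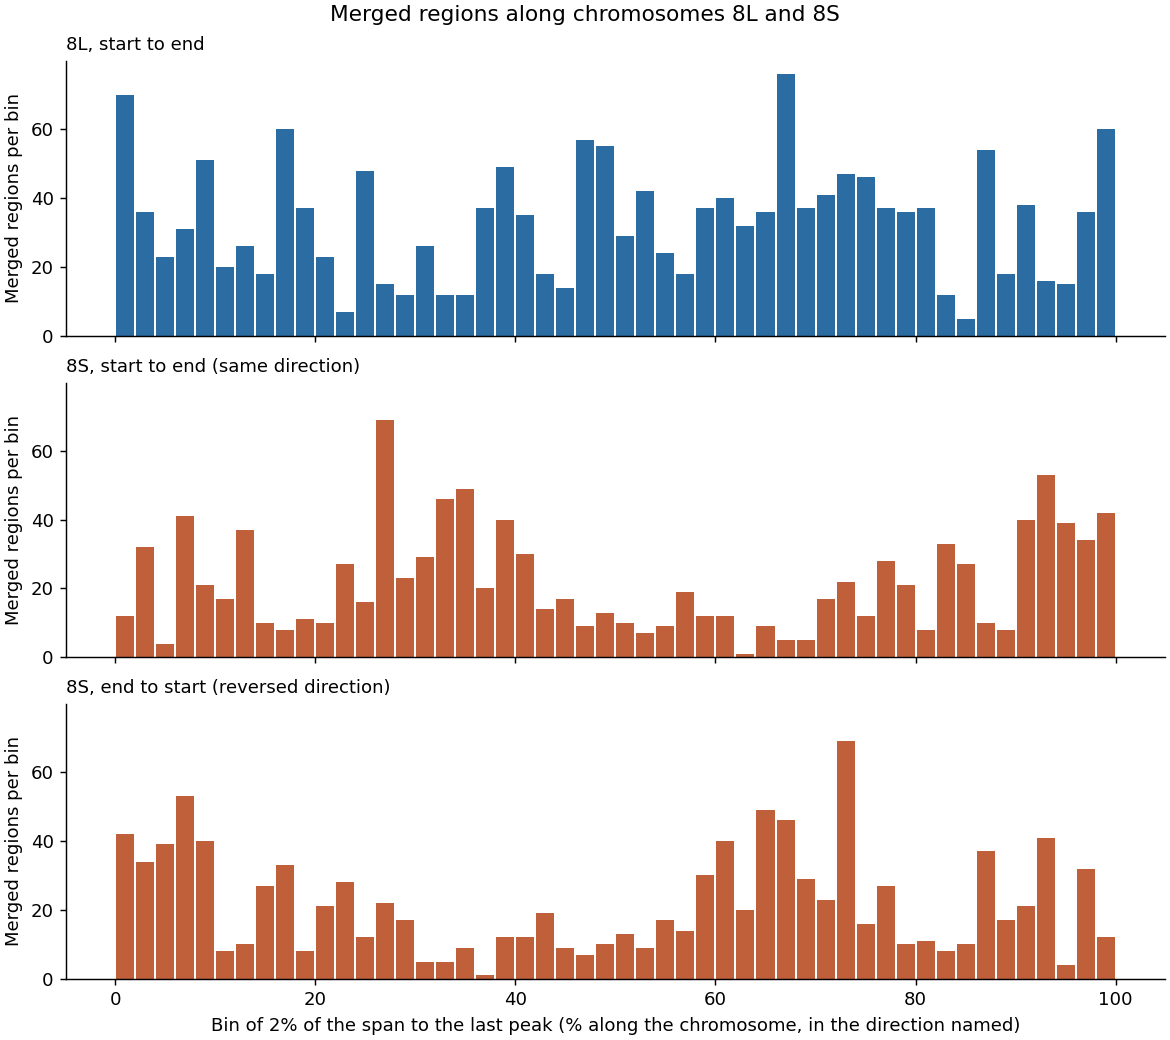
Merged regions in 50 bins of 2% of the span along 8L (top), 8S (middle) and 8S read from its end (bottom); the bars are counts per bin. The bins of 8S from 46% to 76% of its span, limits set with the counts known, hold few regions, and the part of 8L at the same relative position is dense.

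Regions were spread unevenly along both chromosomes, and in different places. On 8L the count per bin of 2% of the span ran from 5 to 76 with a median of 36. On 8S it ran from 1 to 69 with a median of 17. Between 46% and 76% of its span, 8S carried 162 regions (14.9% of its regions), or 5.46 per Mb. These limits follow the low bins of 8S and were set with the counts known, so a low value there is partly a result of the choice. The same relative part of 8L carried 617 regions (37.1%), or 17.1 per Mb. In steps of 20% of the span, 8L was densest from 60% to 80%, with 428 regions (17.8 per Mb), and sparsest from 20% to 40%, with 241 (10.03 per Mb). 8S was densest from 20% to 40%, with 329 regions (16.6 per Mb), and sparsest from 60% to 80%, with 132 (6.67 per Mb).

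Read from their starts, 8L and 8S did not run in parallel. Over the 50 bins, the counts of 8L and 8S had a Pearson correlation of -0.344 in the same direction and 0.322 when 8S was reversed. Bins are not independent of each other and share the ends of the chromosomes, so these values describe the profiles and carry no p. On each of the other 8 pairs the correlation in the same direction was positive, from 0.139 on pair 3 to 0.655 on pair 9_10. On pair 4 too the reversed value (0.271) was above the same-direction one (0.234). Pair 8 had the lowest same-direction value and the highest reversed value of the 9 pairs, with the reversed values of the others between -0.222 and 0.271. For scale, the 72 combinations of an L chromosome with the S chromosome of another pair gave 144 values between -0.310 and 0.430. None of these was as low as the same-direction value of pair 8, and 3 were at or above its reversed value. The reversed value is therefore within what unrelated chromosomes gave, whereas the same-direction value lies just below their range.

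Each list on its own gave a negative value in the same direction and a positive one reversed. In the same direction the correlation over bins was -0.353 for β-catenin, -0.378 for Smad1, -0.267 for explant p300 and -0.210 for whole-embryo p300. Reversed, it was 0.246, 0.283, 0.371 and 0.201. For whole-embryo p300 pair 8 did not stand alone, as pair 4 had a higher reversed value (0.261) and pair 3 a same-direction value just below 0 (-0.00853). The lists share sites, so they are not separate observations.

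**Figure D2:**
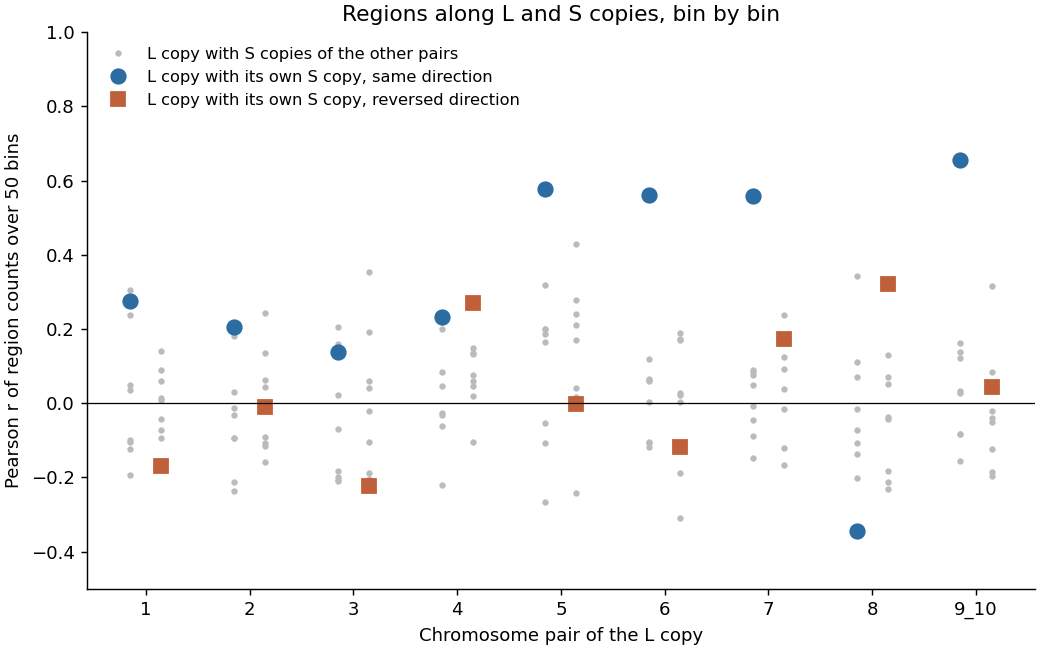
Pearson correlation of region counts over 50 bins between each L chromosome and its own S copy in the same (circles) and reversed (squares) direction; small grey points give the same L chromosome against the S copies of the other 8 pairs, on the left for the same and on the right for the reversed direction. Pair 8 is the pair with a negative value in the same direction (-0.344) and has the highest reversed value (0.322).

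Shorter stretches were matched as well, which says nothing of a reversal of the whole chromosome, since the best of many short stretches exceeds a value over all bins. Among all stretches of 10 bins (20% of the span), the best match of 8L with 8S had r = 0.889 and paired the part of 8L from 52% to 72% with the part of 8S from 12% to 32%, in the same direction. The 8 best stretches all ran in the same direction with a shift of 40% of the span, although they overlap and share bins. A match of this size was common, since the best stretch in 16 combinations of 8L or 8S with a chromosome of another pair reached 0.857 to 0.961, and 12 of the 16 were at or above 0.889. With stretches of 20 bins, a length chosen after seeing the data, the best match paired 44% to 84% of 8L with 4% to 44% of 8S in the same direction at r = 0.788. The 16 other combinations then reached 0.602 to 0.772, and the 8 other pairs with their own S copies 0.635 to 0.826. Explant p300 peaks alone gave r = 0.717 over this stretch, β-catenin 0.457, Smad1 0.323 and whole-embryo p300 0.232.

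Gene order on this pair was read from an annotation whose build may differ from that of the peaks. In the RefSeq annotation of Xenopus laevis v10.1, 792 genes had an L symbol on 8L and the matching S symbol on 8S, and the Spearman correlation of their ranks was 0.266. Pair 3 had 0.197, and the other 7 pairs had 0.969 or more. On pair 8 the genes fell into 4 runs of at least 50 genes. A run of 142 genes from mbd1 to slc25a25 and one of 282 from zbtb26 to timm50 had the same direction on both copies as a whole, the next of 205 genes was reversed, and the last of 146 had the same direction again. Within the first 2 runs the order was not uniform, since 42 and 43 neighbouring genes stood in reversed order, against 91 and 231 in the same. bmp4 and foxa1 lay in the reversed run, and cdx4 in the run from zbtb26 to timm50. The annotation reached beyond the last peak by 15.3 Mb on 8L and 5.01 Mb on 8S, so its positions were not laid over the peaks. By gene rank, the reversed run went from 55.8% to 81.6% of the genes on 8L and from 26.8% down to 1.52% on 8S. The run of 282 genes went from 20.2% to 55.7% on 8L and from 47.1% to 80.3% on 8S. By percentage, the best stretch of 20 bins above, from 44% to 84% of 8L and 4% to 44% of 8S, overlapped the reversed run on both copies. It paired positions there in the same direction, however, and also took in parts of both copies outside the run. The best reversed stretch of that length had r = 0.582. Percent of gene rank and percent of span are different scales, and the builds may differ. Whether the peak profile and the gene order match there was therefore not tested.

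Sites shared by all lists were placed differently on the copies. There were 137 regions with peaks of all 4 lists, 86 on 8L and 51 on 8S. Of those on 8L, 22 (25.6%, interval 16.8 to 36.1) had such a region on 8S within 1% of the span at the same relative position. This was the lowest share of the 9 pairs, with the others between 47.3% and 76.4%. In the reversed direction 52 of 86 (60.5%, interval 49.3 to 70.8) had one, place 5 of the 9 pairs, with the others between 29.7% and 74.8%. The lowest of these reversed shares, on pair 3, has an interval (20.5 to 40.2) that overlaps the same-direction one of pair 8. Such shares also depend on the number of joint regions on the S copy, which ran from 45 to 94. No level for unrelated chromosomes is given for them. In the last 20% of 8S, 5 of 294 regions (1.70%, interval 0.554 to 3.92) were in all 4 lists, against 21 of 329 (6.38%, interval 3.99 to 9.59) from 20% to 40% of its span. The last 20% of 8L had 19 of 291 (6.53%, interval 3.98 to 10.01). These parts were not named before the counts were known. The part of 8S from 60% to 80% was also low, with 3 of 132 (2.27%, interval 0.471 to 6.50). In steps of 20% of the span, the share ran from 1.70% to 7.25% on 8S and from 3.34% to 6.53% on 8L.

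**Figure D3:**
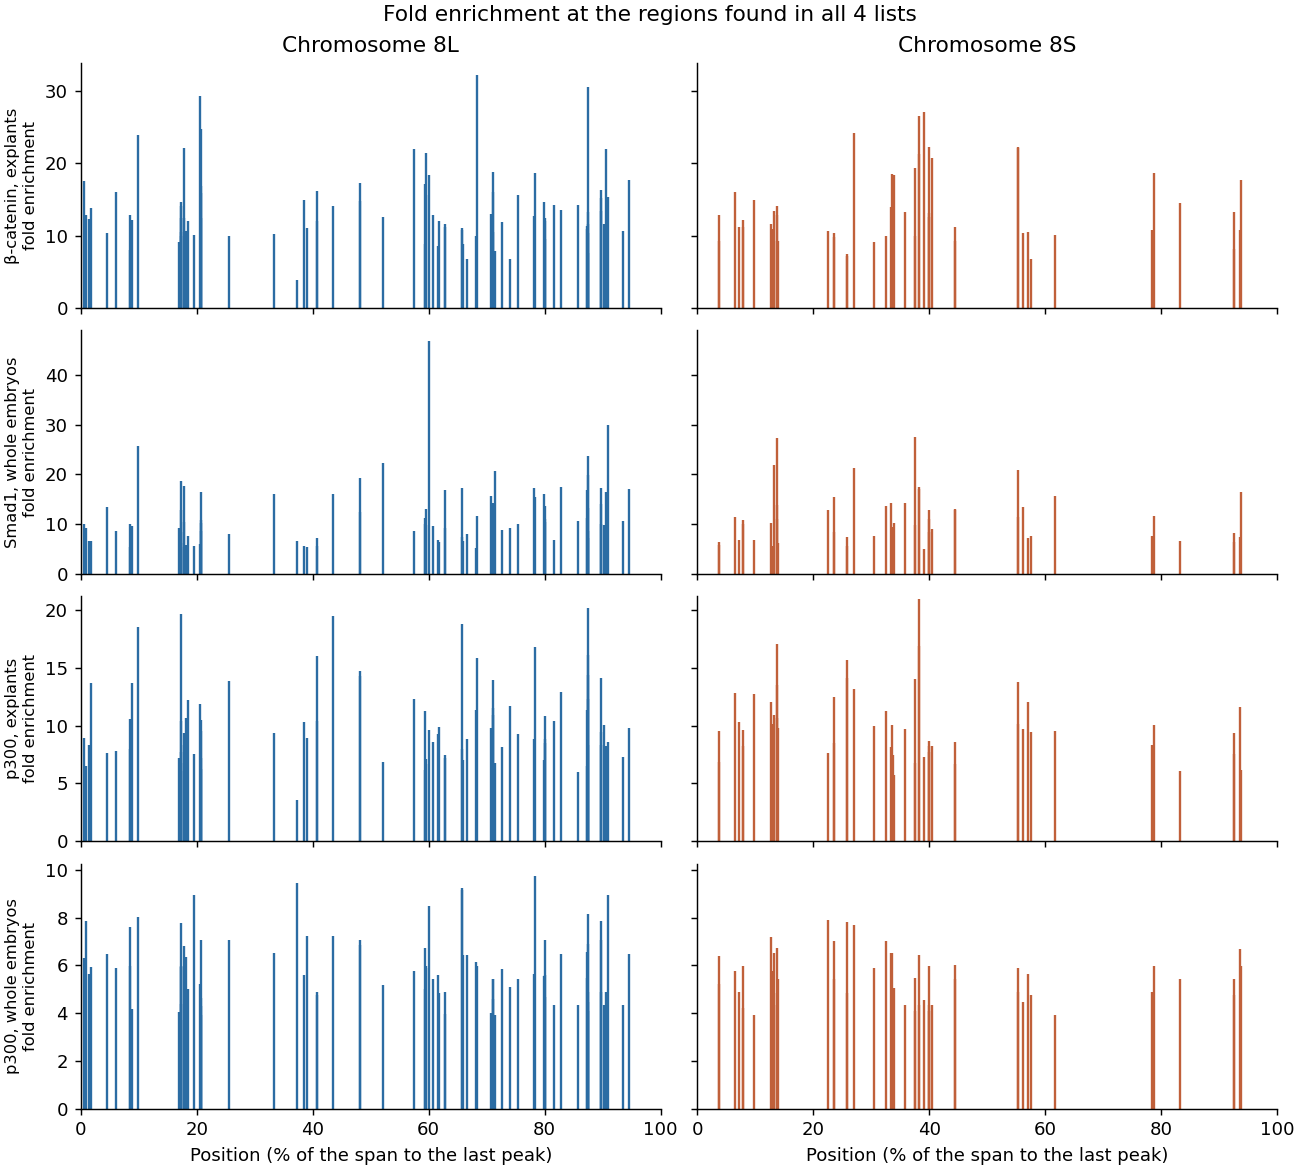
Fold enrichment of each protein at the 86 regions on 8L (left) and the 51 on 8S (right) that are in all 4 lists, by position in percent of the span to the last peak; each line is 1 region. The highest Smad1 fold, 46.6, stands at 60.0% of 8L, and the lines on 8S thin out beyond 60%.

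The highest-scoring β-catenin peaks of the pair included several that no other list overlapped. Such peaks were common in the whole list, with 789 of 1457 on the pair and 7605 of 13827 on the other 8 pairs. On 8S the highest-scoring peak, from 35356106 to 35357618, had 49.7-fold enrichment, ranked 16 in the list and overlapped nothing. The next, from 37097696 to 37098418 (35.3-fold), was also alone, whereas the one from 37836478 to 37837216 (26.6-fold) overlapped all other lists. On 8L the leading peak, from 71440947 to 71441409, ranked 9 with 36.7-fold and overlapped Smad1 and explant p300. The peak from 2603004 to 2603748 (42.8-fold) was alone, and that from 24796107 to 24796828 (29.3-fold) overlapped all other lists. A fold is the authors' value of ChIP pileup over local background and can be compared only within a list.

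The 3 highest-scoring Smad1 peaks of 8L and the 3 of 8S all overlapped all other lists. Over all Smad1 peaks, 137 of 808 on the pair and 1298 of 6753 on the other 8 pairs did. Smad1 peaks with all 3 partners had higher folds than those with none on the other pairs too (median 11.3 against 7.59). The top Smad1 peaks of the other pairs were not examined for partners, so whether this is particular to the pair was not tested. On 8L the peak from 72101918 to 72103000 had 46.6-fold Smad1 enrichment with 18.4-fold β-catenin and 9.60-fold explant p300. The next, from 109214570 to 109215061, had 29.8-fold Smad1, and the one from 11776248 to 11777431 had 25.7-fold Smad1 with 24.0-fold β-catenin and 18.5-fold explant p300. On 8S the peaks from 37095022 to 37095666, from 13523368 to 13523966 and from 26821882 to 26822461 had 27.5-fold, 27.3-fold and 21.3-fold Smad1 enrichment. Their summits lay 0 to 25 bp from the nearest β-catenin summit, on both chromosomes.

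Explant p300 had its highest score on the pair near the end of 8S, from 98203719 to 98204549, with 23.9-fold enrichment and rank 7 in the list. It overlapped whole-embryo p300 (5.99-fold) and neither β-catenin nor Smad1. Of the 3 highest-scoring explant p300 peaks of each chromosome, the other 5 overlapped all lists. Over all explant p300 peaks, 136 of 1509 on the pair and 1298 of 12712 on the other 8 pairs did. The top peaks of the other pairs were not examined for this. The peak on 8S from 37806688 to 37807283 had 20.9-fold p300, 21.3-fold β-catenin and 17.5-fold Smad1 enrichment, and at the one on 8L from 20855149 to 20855642 the values were 19.7, 12.4 and 12.9.

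The 3 highest-scoring whole-embryo p300 peaks on 8L lay together from 2930164 to 2932883, at 32.2-fold, 26.6-fold and 20.2-fold. With a neighbour of 21.8-fold enrichment they made a group of 4 peaks within 8.53 kb, none of which met a peak of another list. Of the 100 highest-scoring whole-embryo p300 peaks, 10 were on the pair, 9 of them on 8L, and 9 of the 10 overlapped nothing, 4 of the 9 being that group. On the other 8 pairs 41 of the 56 peaks among these 100 overlapped nothing, so such peaks were also common at the top of this list on other chromosomes. Over all its peaks, 111 of 412 on the pair and 948 of 3723 elsewhere had no partner. The exception, on 8L from 44846892 to 44847349 (9.47-fold), overlapped all other lists. On 8S the highest-scoring, from 89630052 to 89630164, had 12.5-fold enrichment.

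Several of these strong sites were neighbours, as was seen after their values were known. The 1 Mb of 8S from 37 Mb held 26 regions, against a mean of 11.0 per Mb, and 4 of them were in all 4 lists. Within it lay the leading Smad1 peak of 8S, and the β-catenin peaks from 37097696 and 37836478 and the explant p300 peak from 37806688 given above. The 1 Mb of 8L from 71.3 Mb held 24 regions, against a mean of 13.8 per Mb, 4 of them in all 4 lists, and included the leading β-catenin and Smad1 peaks of 8L. Whether the 8S and 8L neighbourhoods are copies of each other could not be examined without sequence.

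The joint sites with the highest β-catenin scores ranged widely in their Smad1 fold, from 6.10 to 27.5. On 8L the region from 24796107 to 24796828 had 29.3-fold β-catenin, 6.10-fold Smad1 and 11.9-fold explant p300 enrichment, and at that from 82181883 to 82182489 they were 32.3, 11.7 and 15.8. At the region from 11776151 to 11777431 the values were 24.0, 25.7 and 18.5. The regions from 71442797 to 71443411 and from 21425601 to 21427346 had 21.4-fold and 22.2-fold β-catenin with 9.94-fold and 17.8-fold Smad1. On 8S the region from 37094961 to 37095711 had the highest Smad1 fold of these sites, 27.5, with 19.3-fold β-catenin. The region from 26821319 to 26822602 had 24.2-fold β-catenin and 21.3-fold Smad1, and the regions from 54726863 to 54727775 and from 33097179 to 33098373 had 22.1-fold and 14.02-fold β-catenin with 11.6-fold and 14.4-fold Smad1. Over the 137 joint regions of the pair, the Smad1 summit was a median of 23 bp and the explant p300 summit a median of 26 bp from the β-catenin summit.

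Peaks on the pair were slightly less enriched than elsewhere. The median fold of β-catenin was 11.8 (interval of the median 11.6 to 12.1) against 12.2 (12.1 to 12.3) over the other 8 pairs, that of Smad1 8.05 (7.87 to 8.22) against 8.35 (8.26 to 8.42), and that of explant p300 7.93 (7.82 to 8.03) against 8.05 (8.003 to 8.08). In each of these 3 lists the pair had the lowest median of the 9 pairs. The differences were small beside the spread of peaks within the pair, where the middle 50% of β-catenin folds ran from 9.94 to 14.9. The whole-embryo p300 list did not share this order, at 5.44 (5.21 to 5.46) against 5.41 (5.31 to 5.44), with overlapping intervals. Its copies differed, with 5.46 (5.27 to 5.67) on 8L, place 2 of the 18 chromosomes, and 5.01 (4.89 to 5.44) on 8S, the lowest. These intervals overlap too. By median fold of β-catenin, Smad1 and explant p300, 8L had places 17, 18 and 18 of 18, and 8S had places 13, 17 and 14. In the higher-scoring 50% of the whole-embryo p300 list the median on the pair was 0.974 times that elsewhere (interval 0.947 to 1.012). With the same cut, β-catenin had 0.961 (0.943 to 0.993), Smad1 0.971 (0.945 to 0.9998) and explant p300 0.989 (0.971 to 1.004). These intervals of the ratios carry the error of the median on the pair only and take the median elsewhere as fixed, so they are too narrow. The contrast of whole-embryo p300 with the other lists therefore depended on the peaks kept. The explant p300 interval then included 1, and the Smad1 interval all but reached it. Of the peaks on the pair, 8.24% of β-catenin (6.88 to 9.77) and 8.17% of Smad1 (6.37 to 10.3) were in the top 10% of their list by score, against 10.2% and 10.2% on the other pairs. Both were the lowest shares of the 9 pairs. Explant p300 had 9.01% (7.62 to 10.6), where pair 6 was lower at 7.75%, and whole-embryo p300 went the other way, with 10.2% (7.45 to 13.5) against 8.46% elsewhere.

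**Figure D4:**
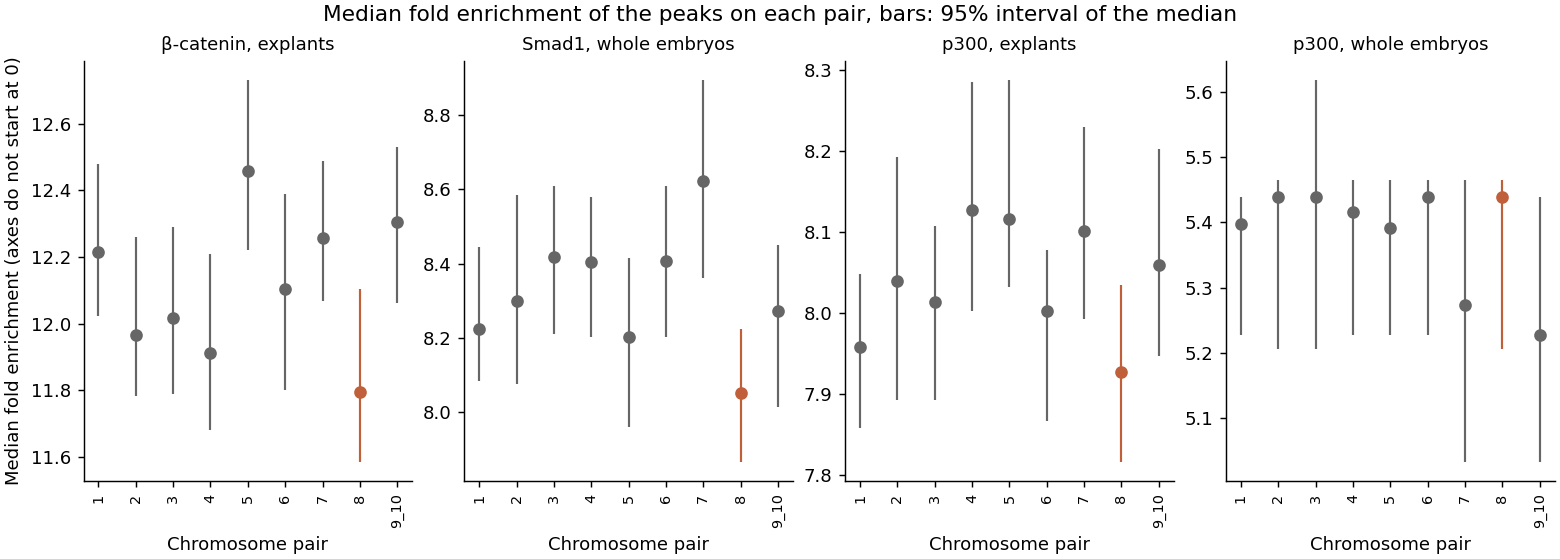
Median fold enrichment of the peaks of each list on each chromosome pair, with the 95% interval of the median; pair 8 is in orange, and the axes do not start at 0. Pair 8 is lowest for β-catenin (11.8), Smad1 (8.05) and explant p300 (7.93), and its intervals overlap those of several other pairs.

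For β-catenin, Smad1 and explant p300 the gap was larger at joint sites than at sites of 1 list, whereas whole-embryo p300 had no lower median on the pair at joint sites. β-catenin peaks that overlapped no other list had a median fold of 12.1 on the pair and 12.2 elsewhere, with overlapping intervals (11.8 to 12.4 and 12.1 to 12.4). β-catenin peaks that overlapped all 3 other lists had 12.6 (11.9 to 13.3) on the pair and 14.1 (13.7 to 14.6) elsewhere. For Smad1 peaks with all 3 others the values were 10.4 (9.69 to 11.4) and 11.3 (10.9 to 11.6), and for explant p300 they were 9.62 (8.94 to 10.1) and 10.2 (9.95 to 10.4). Smad1 peaks alone had 7.46 and 7.59, and explant p300 peaks alone 7.63 and 7.70. For Smad1 and explant p300 the gap did not grow steadily with the number of lists overlapped. With 2 other lists, Smad1 had 8.67 on the pair and 8.70 elsewhere, and explant p300 8.63 and 8.65. With 1 other list they had 7.51 and 7.81, and 7.75 and 8.03. β-catenin had 10.9 and 11.2 with 1 other list, and 11.6 and 12.3 with 2. Whole-embryo p300 peaks with all 3 others had 5.64 (5.44 to 5.93) on the pair and 5.62 (5.46 to 5.72) elsewhere. The difference between these gaps was not tested. Depth and mappability of the pair are unknown, and their part in these folds was not tested.

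**Figure D5:**
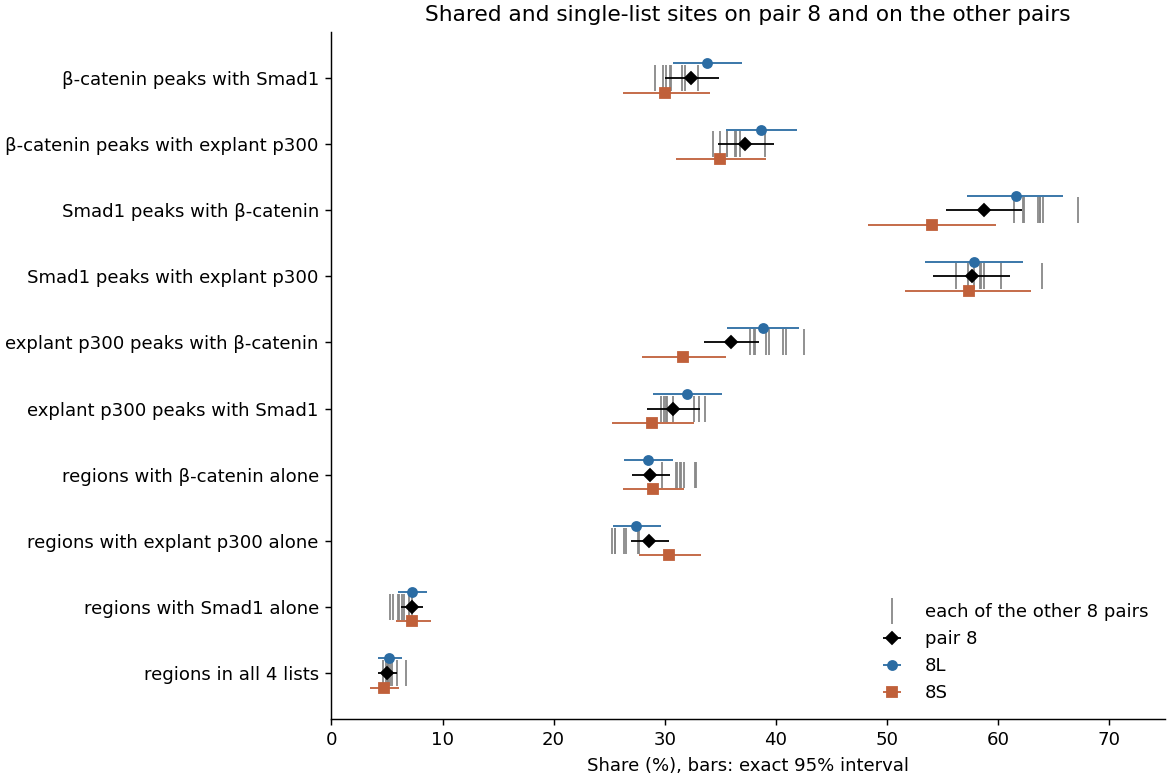
Shares of peaks that overlap another list, and shares of merged regions by the lists they hold, on pair 8 (diamonds), 8L (circles) and 8S (squares) with exact 95% intervals; each grey tick is 1 of the other 8 pairs. Pair 8 lies below all ticks for Smad1 peaks with β-catenin (58.8%), explant p300 peaks with β-catenin (36.0%) and regions with β-catenin alone (28.7%), and above them for regions with explant p300 alone (28.6%).

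How the proteins shared sites was close to that elsewhere, but Smad1 and explant p300 peaks overlapped β-catenin less often. The pair also held a smaller part of the β-catenin peaks (9.53%) than of Smad1 (10.7%) and explant p300 (10.6%). Whether this accounts for the lower shares was not tested. Of the β-catenin peaks on the pair, 472 of 1457 (32.4%, interval 30.0 to 34.9) overlapped Smad1 and 543 (37.3%, 34.8 to 39.8) overlapped explant p300, against 30.8% and 36.1% on the other pairs. Seen from the partners, the pair came last. Of the Smad1 peaks, 475 of 808 (58.8%, interval 55.3 to 62.2) overlapped β-catenin, with the other 8 pairs between 61.5% and 67.2%. Of the explant p300 peaks, 543 of 1509 (36.0%, interval 33.6 to 38.5) did, with the others between 37.7% and 42.5%.

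These shares were lower on 8S than on 8L. On 8S, 190 of 600 explant p300 peaks (31.7%, interval 28.0 to 35.6) and 165 of 305 Smad1 peaks (54.1%, interval 48.3 to 59.8) overlapped β-catenin, in both cases the lowest share of the 18 chromosomes. On 8L the shares were 38.8% (35.7 to 42.1) and 61.6% (57.2 to 65.9), near the medians of the other chromosomes at 39.2% and 63.2%. Explant p300 peaks of 8S also overlapped Smad1 least of the 18 chromosomes, in 173 of 600 (28.8%, interval 25.2 to 32.6). The next lowest chromosome was close, at 29.0%. Regions with explant p300 alone were 30.4% (27.7 to 33.3) of those on 8S, the highest share of the 18, with the next at 28.8%. The densest 1 Mb of 8S started at 26531115 and held 52 regions. Of these, 37 had explant p300 and 16 had β-catenin, and 25 had explant p300 alone. The densest 1 Mb of 8L, from 20439668, held 51 regions, of which 37 had β-catenin and 29 explant p300. A window led by explant p300 was not particular to 8S. In the densest 1 Mb of 1L, 41 of 53 regions had explant p300 and 19 had β-catenin. Explant p300 also led on 5S, 7L and 7S, and β-catenin led on the remaining chromosomes. Without the 8S window, a setting chosen after seeing the data, 33.0% (29.1 to 37.0) of the explant p300 peaks of 8S overlapped β-catenin. This was below the 36.5% of the next lowest chromosome, which lies within the interval, and the other chromosomes kept their densest windows. For Smad1, the interval of 8S includes the 57.1% of the next lowest chromosome, 5S, and the share without the window was not computed.

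Among the merged regions of the pair, 789 (28.7%, interval 27.0 to 30.4) held β-catenin alone, the lowest share of the 9 pairs, and 787 (28.6%, 26.9 to 30.4) held explant p300 alone, the highest. The others ran from 29.8% to 32.9% and from 25.2% to 27.7%. Smad1 was alone in 199 regions (7.24%, 6.30 to 8.27) and whole-embryo p300 in 111 (4.04%, 3.33 to 4.84). β-catenin, Smad1 and explant p300 without whole-embryo p300 were together in 212 regions (7.71%, 6.74 to 8.77). The 137 regions in all 4 lists were 4.98% (4.20 to 5.86) of the regions, against 5.38% elsewhere. The pairing of β-catenin with whole-embryo p300 and nothing else was rarest here, in 4 regions (0.146%, 0.0397 to 0.372) against 117 of 24100 (0.485%) on the other pairs. Smad1 with explant p300 and nothing else had its highest share here, in 87 regions (3.16%, 2.54 to 3.89) against 2.54% on the other pairs. These pairings were picked from all combinations of lists for their place, and the first rests on 4 regions.

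p300 accompanied joint β-catenin and Smad1 sites on the pair as it did elsewhere. Where a β-catenin peak overlapped Smad1, explant p300 was present in 351 of 472 cases (74.4%, interval 70.2 to 78.2), and where it did not, in 192 of 985 (19.5%, 17.1 to 22.1). The other pairs had 73.7% and 19.3%. The shares with Smad1 were 73.6% on 8L and 75.8% on 8S, and without it 20.8% and 17.4%, with overlapping intervals. Whole-embryo p300 was present at 32.2% (28.0 to 36.6) and 2.74% (1.81 to 3.96) of these β-catenin peaks, against 34.3% and 3.60% elsewhere. Of the whole-embryo p300 peaks of the pair, 263 of 412 (63.8%, 59.0 to 68.5) overlapped explant p300, against 63.2% on the other pairs.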

How the data were processed

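Peaks of 20 labelled libraries (10 ChIP and 10 inputs) were deposited as 4 lists. Per the submitters' processing notes, FastQC, Trimmomatic, Bowtie2, Picard, SAMtools and MACS2 were used, with no versions or roles. The sources used here do not give the genome build, the IDR settings or the treatment of reads that match both L and S copies. IDR is in the name of every list except that of whole-embryo p300. Per peak, the authors deposited a fold enrichment (a ratio of pileup over background), a −log10 p-value and q-value, a score and a summit. The score was within 1 unit of 10 times the −log10 p-value, or of 10 times the −log10 q-value in the whole-embryo p300 list. That list had 18 repeated lines on the pair, kept once with the highest score, and 1 peak without a summit, given its midpoint.

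Overlap meant at least 1 shared bp. Regions were counted in 50 equal bins from the chromosome start to its last peak of any list. Shares have exact (Clopper-Pearson) 95% intervals and medians have order-statistic intervals. Read depth per library is unknown. Peaks named in the text were the 3 highest scores per list and chromosome, the 5 joint regions per chromosome with the highest β-catenin score, and the densest 1 Mb; others were chosen after their values were seen. Genes were used for names, number and order. Gene runs ended where the running median of 9 ranks stepped by over 30. The members and lists were chosen with earlier results of these data known. Counting and order were tested on simulated data. Alternatives are given in the closing section. Python 3.11.15, numpy 2.4.6, pandas 2.3.3 and scipy 1.17.1 were used.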

Additional observations from a re-analysis of the deposited data

How the results depend on the processing

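Of 73 alternative values, 17 moved outside the interval of the main value and 56 did not. Some could not move, since keeping every line changes nothing for β-catenin, Smad1 and explant p300, whose lists repeat no interval. Correlations were judged against wide intervals that treat bins as independent, which they are not. These were -0.568 to -0.0725 in the same direction and 0.0483 to 0.551 reversed. The count of 56 is therefore no measure of stability. Only the correlations could change sign, and none did. The ratio of the median whole-embryo p300 fold on the pair to that elsewhere crossed 1. It went from 1.005 to 0.974 in the higher-scoring 50% of the list, within the interval of the main value. The correlation of 8L with 8S in the same direction ran from -0.478 with 20 bins to -0.232 with 100 bins, and the reversed one from 0.519 to 0.229. Without the 2 bins at each chromosome end, an alternative added after seeing the data, they were -0.417 and 0.310. With all sequences in the denominator, scaffolds included, the share on the pair was 8.94% for β-catenin, 9.96% for explant p300 and 9.05% for whole-embryo p300. Most other shifts came from keeping 50% of each list by score, which removes partners by construction. The Smad1 share on the pair was then 9.96%, and the part of whole-embryo p300 on 8L 64.0%. The overlap shares fell to 27.4% for β-catenin with Smad1, 32.1% for β-catenin with explant p300, 52.3% for Smad1 with β-catenin, 53.9% for Smad1 with explant p300, 21.3% for Smad1 with whole-embryo p300 and 55.0% for whole-embryo with explant p300. Regions with whole-embryo p300 alone were 5.20%, those with β-catenin, Smad1 and explant p300 5.76%, and those in all 4 lists 3.65%. With summits within 200 bp in place of overlap, 58.7% of whole-embryo p300 peaks met explant p300. With 2% of the span as the limit, 81.4% of the joint regions of 8L had a partner on 8S in the reversed and 50% in the same direction. No paired analysis was possible because each labelled group has 1 library and the lists hold no sample values. No read depth is known, so depth limits could not be set.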

Other observations

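Regions on pair 8 lay close together. The median distance from 1 region to the next was 19.1 kb, the shortest of the 9 pairs, with the others between 19.6 and 28.0 kb. On 8L it was 18.1 kb and on 8S 20.4 kb. Of the 2749 regions, 1590 (57.8%, exact 95% interval 56.0 to 59.7) had another within 10 kb, the highest share of the 9 pairs, against 49.6% to 56.2% on the others. The longest stretch without a peak was 2.14 Mb on each copy, from 113922573 to 116060294 on 8L and from 61041153 to 63184427 on 8S. The 1 Mb with the most regions in all 4 lists held 8 of them on 8L, from 20761085, and 6 on 8S, from 12607900, against means of 0.716 and 0.515 per Mb. A maximum exceeds a mean on any chromosome, and on the other chromosomes this maximum ran from 3 to 10.

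At the 137 joint regions, folds of the proteins were weakly related across regions. The Spearman correlation of β-catenin with Smad1 fold was 0.349 (0.302 over 86 regions on 8L and 0.409 over 51 on 8S), against 0.356 over 1296 joint regions of the other pairs. For β-catenin with explant p300 it was 0.133, and for β-catenin with whole-embryo p300 it was -0.00712. The explant β-catenin and explant p300 lists share tissue and the Smad1 list does not, and joint regions were chosen for being called in each list, which narrows the range of folds.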
